A study of Mus musculus with 7 samples.

Results

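Open chromatin at the starts of pseudogenes was measured in whole mouse liver by ATAC-seq, in which a transposase inserts sequencing adapters where DNA is exposed. Of the 55680 consensus regions of GRCm38, 337 overlapped the 200 bp on either side of a pseudogene start in GENCODE M21 and lay over 1000 bp from the start of any gene of another type. Of these, 241 lay at processed pseudogenes and 81 at unprocessed pseudogenes, and the remaining 15 lay at polymorphic genes (8), transcribed unitary pseudogenes (3), a unitary pseudogene (1) and pseudogenes of no stated type (3). The young group held 3 liver samples from male C57BL/6N mice aged 3 months, and the aged group held 4 liver samples from male C57BL/6N mice aged 18 months. No treatment or engineered allele is named for either group. By the series design, 2 lobules of the same old animal were counted as separate samples, so that the aged samples came from 3 animals, and which samples share an animal is not given. The p-values therefore measure the spread between samples, part of which is within an animal. Because liver is a mixture of cell types, fewer cells with an open region and less open chromatin per cell cannot be told apart in these bulk libraries.

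Pseudogenes are copies of genes that have lost the ability to make the original protein. Processed pseudogenes are retrocopies, made when the LINE-1 machinery reverse transcribes an mRNA and inserts it elsewhere, so that they lack introns and usually the promoter of the parent gene. Unprocessed pseudogenes arise by duplication of genomic DNA and can keep introns and the parent's upstream sequence, whereas unitary and polymorphic pseudogenes are disabled versions of a gene at its own place. Pieces of mitochondrial DNA that were inserted into nuclear chromosomes are also annotated as pseudogenes of mitochondrial genes. Abundant mRNAs such as those of ribosomal proteins are the best known source of retrocopies.

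The sequences shown were read from the reference genome, GRCm38, which stands for the strain of the assembly and not for these animals. The first pair shows how alike some of these regions are. Gm13241 and Gm13238 are retrocopies of Cdv3 on distal chromosome 4, and both fell in aged liver. The first 120 bases from each annotated start (chr4:146475332-146475451 and chr4:145837219-145837338, both plus strand) are given with CpG dinucleotides in capitals, 15 in each, and 113 of 123 aligned positions were identical, gaps and unaligned ends included.
Gm13241: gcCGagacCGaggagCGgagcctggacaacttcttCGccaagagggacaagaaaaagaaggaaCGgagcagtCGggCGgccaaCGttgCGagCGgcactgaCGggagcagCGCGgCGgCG
Gm13238: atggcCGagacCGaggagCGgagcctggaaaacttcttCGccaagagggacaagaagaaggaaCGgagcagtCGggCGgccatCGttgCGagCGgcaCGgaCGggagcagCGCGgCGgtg
The second pair shows a nuclear copy of mitochondrial DNA. The first 120 bases of Gm13340, an unprocessed copy of mt-Co1 (chr2:22589528-22589647, minus strand), differed from mitochondrial DNA (plus strand, positions 5328 to 5447) at 3 positions, which are in capitals.
Gm13340: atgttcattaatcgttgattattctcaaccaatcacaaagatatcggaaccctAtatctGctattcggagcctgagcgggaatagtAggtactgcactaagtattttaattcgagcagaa
mitochondrial DNA: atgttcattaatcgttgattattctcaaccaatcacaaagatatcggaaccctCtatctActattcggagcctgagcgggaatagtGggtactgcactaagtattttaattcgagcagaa
The remaining stretches come from the region with the largest rise, from the region with the highest level and from a called member of the major urinary protein cluster. The centre of the Gm9797 region (chr10:11608714-11608833, plus strand) held no CpG and 30.8% G and C. In Gm42642 (chr6:3183138-3183257, minus strand) capitals mark an SP motif on the opposite strand and a CCAAT box, and in Mup-ps13 (chr4:61534487-61534606, plus strand) they mark a C/EBP motif on the opposite strand.
Gm9797: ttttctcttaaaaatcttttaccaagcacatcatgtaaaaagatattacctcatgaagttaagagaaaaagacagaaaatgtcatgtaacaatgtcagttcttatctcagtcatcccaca
Gm42642: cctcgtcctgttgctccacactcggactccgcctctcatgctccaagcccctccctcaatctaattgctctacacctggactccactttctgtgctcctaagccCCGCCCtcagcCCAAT
Mup-ps13: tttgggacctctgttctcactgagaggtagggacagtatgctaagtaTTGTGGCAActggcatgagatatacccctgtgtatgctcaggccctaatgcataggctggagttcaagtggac

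Few annotated pseudogenes had a start at one of the regions kept, and the annotated total includes those too close to another gene's start to qualify. Of 13523 pseudogenes in the annotation, 342 (2.53%) had a start at one of the 337 regions, including 246 of 10236 processed pseudogenes (2.403%) and 80 of 2896 unprocessed pseudogenes (2.76%). A further 97 regions at pseudogene starts were left out because another gene's start lay within 1000 bp, and their median level was 21.4 CPM per kb (CPM is the count scaled by the TMM library size, here divided by the length of the region) against 9.62 for the regions kept. The nearest start of another gene to any region kept was 1092 bp away. The start itself lay inside the region in 241 of 337 cases, and 132 regions had their midpoint within 200 bp of it. In the remaining cases the region reached the window around the start only with an edge. Of the 337 regions, 98 (29.1%) lay inside a protein-coding gene. The libraries held 4474652 to 25461110 counts in all regions, of which pseudogene starts took 0.462% to 0.527%, and 278 of the 337 regions had at least 10 counts in every library. The 8 hepatocyte markers all had an open promoter, summing to 614 to 723 CPM in young and 799 to 925 CPM in aged samples, whereas no promoter region was found for any of 6 lymphocyte markers and 1 was found for 6 Kupffer cell and macrophage markers. Sinusoidal endothelial markers summed to 59.4 to 65.4 CPM in young and 48.4 to 80.7 CPM in aged samples, stellate cell markers to 26.6 to 29.1 and 16.1 to 23.5 CPM, and cholangiocyte markers to 43.8 to 52.0 and 39.4 to 56.9 CPM. The part of cell composition in the results was not tested.

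More pseudogene-start regions became less accessible than more accessible in aged liver. At an adjusted p under 0.05 (edgeR quasi-likelihood test with Benjamini-Hochberg adjustment over all 55680 regions), 21 of 337 fell (6.23%) and 6 rose (1.78%), where the background over all regions was 3.3% for falls and 2.44% for rises. Processed pseudogenes gave 15 falls and 5 rises, and unprocessed pseudogenes gave 6 falls and 1 rise. Every aged library lay below every young library at 48 of 337 regions, beside 11.6% of all regions, and above every young library at 18, beside 10.2%. The calls depended on the scaling, and the shares over all regions moved with them. Total counts gave 3 rises and 26 falls beside 0.975% rises and 5.26% falls over all regions, and offsets fitted on GC content gave 13 and 21 beside 6.401% and 3.70%. DESeq2 gave 11 and 23 beside 4.96% and 3.47%, and offsets fitted on mean abundance gave 2 and 9 beside 0.449% and 0.785%. Since 2 of the aged samples came from 1 animal, each pair of aged libraries was also summed in turn, which gave from 1 rise and 12 falls (aged 1 and 3 summed, beside 0.483% and 1.24% of all regions) to 10 rises and 25 falls (aged 2 and 4 summed, beside 3.89% and 4.63%). Single libraries moved the counts of members and of all regions together. There were 0 rises and 3 falls without young 1 (0.338% of all regions called in either direction), 0 and 4 without young 2 (0.801%), 1 and 5 without aged 1 (0.722%), 1 and 11 without aged 3 (1.17%), and 11 and 29 without aged 4 (7.60%), while 6 rises and 20 falls were called without young 3 (4.76%).

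**Figure D1:**
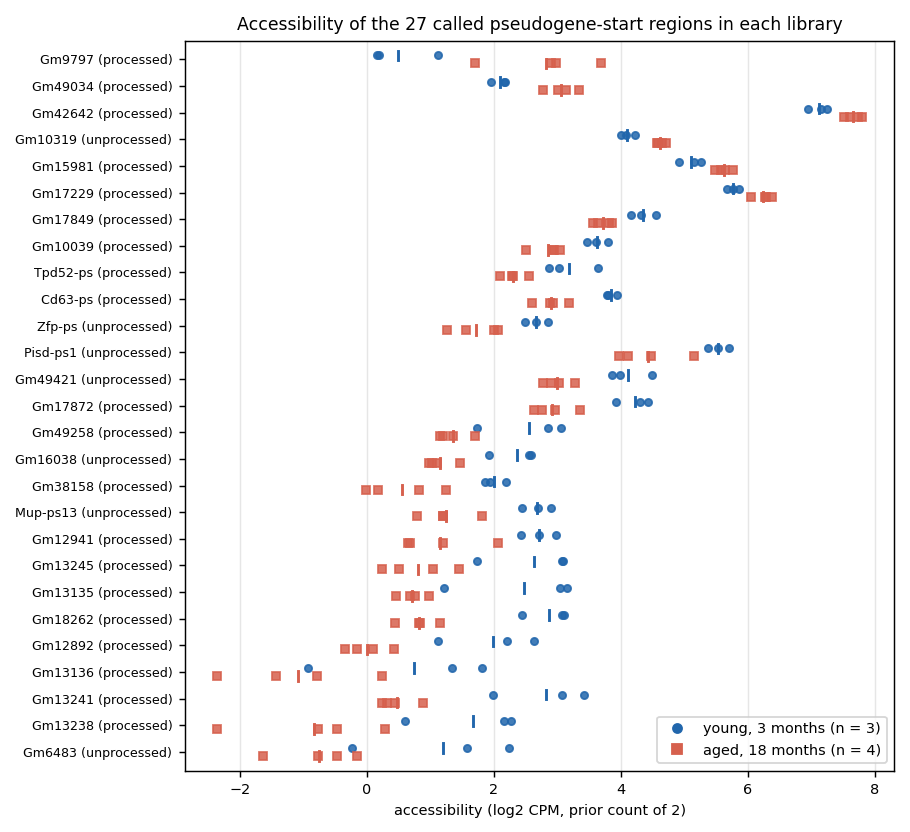
Accessibility (log2 CPM with a prior count of 2, horizontal axis) of the 27 regions with an adjusted p under 0.05, in each young library (circles, n = 3) and each aged library (squares, n = 4), with group means as short vertical bars. In 16 of the 21 falls young 3 was the lowest of the young libraries. Young 3 was the highest young library at 141 of all 337 regions, and the share with it lowest was not counted.

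The largest rise was at Gm9797, a transcribed processed pseudogene that matches the mRNA of Timm8a1, a chaperone of the mitochondrial intermembrane space, with 100% identity. Its region (chr10:11608499-11609050) ended 173 bp before the annotated start and read 0.926, 0.945 and 1.97 CPM in the young and 7.73, 12.7, 7.24 and 3.06 CPM in the aged libraries. All aged libraries lay above all young ones, with aged 4 nearest to them, and the log2 fold change was 2.70 ± 0.45 (SE, adjusted p = 0.011). The log2 fold change of the Timm8a1 promoter region itself was 0.28 (adjusted p = 0.334). Gm49034, a retrocopy of Rpl35a (a protein of the large ribosomal subunit) inside Grid1, read 3.70, 4.35 and 4.27 CPM in young and 9.93, 7.85, 8.64 and 6.62 CPM in aged liver. The groups did not overlap, and its log2 fold change was 1.01 ± 0.23 (adjusted p = 0.027). The call was lost in 5 of 21 alternative fits at Gm49034 and in 2 of 21 at Gm9797, where the adjusted p reached 0.106 and 0.054.

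Gm42642, a processed pseudogene for which no parent passed the sequence search, had the highest level of all 337 regions (chr6:3182481-3183988, 117 CPM per kb). It read 152, 142 and 124 CPM in young and 195, 184, 223 and 212 CPM in aged liver, so that the lowest aged library stood above the highest young one. The log2 fold change was 0.54 ± 0.12 (adjusted p = 0.021). Offsets fitted on mean abundance lowered it to 0.14 (adjusted p = 0.430), and the call was lost in 6 of 21 alternative fits. Gm10319, an unprocessed pseudogene related to Mug2 (a murinoglobulin, one of the protease inhibitors that liver secretes), was the only unprocessed member called as a rise. It read 15.9, 16.7 and 18.4 CPM in young and 25.9, 23.5, 23.8 and 24.8 CPM in aged liver, without overlap (log2 fold change 0.54 ± 0.14, adjusted p = 0.037), but the call was lost in 13 of 21 alternative fits, where the adjusted p reached 0.135. The remaining 2 rises were at retrocopies inside other genes. Gm15981, a copy of Rpl29 (a ribosomal protein of the large subunit) inside Scfd2, read 35.5, 38.1 and 30.1 CPM in young and 49.7, 54.3, 47.9 and 44.8 CPM in aged liver (log2 fold change 0.50 ± 0.12, adjusted p = 0.033). Gm17229, a partial copy of Fbxo34 (an F-box protein) inside Pde7b, read 51.0, 54.5 and 58.2 CPM in young and 76.8, 66.3, 83.3 and 78.1 CPM in aged liver (log2 fold change 0.48 ± 0.11, adjusted p = 0.028). Both had groups that did not overlap, and their calls were lost in 12 and 9 of 21 alternative fits. None of the 6 rises had a near-identical copy, 4 were annotated as transcribed, and 5 stood above the median level of all regions. Among the 337 regions, 57 had such a copy, and 25 processed, 32 unprocessed and 3 unitary starts were annotated as transcribed. The median level of the 337 was 9.62 CPM per kb. With 6 rises, these counts are a description only.

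Of the 21 falls, 20 stood below the median level of all regions (10.8 CPM per kb), and the median of the 337 regions was 9.62. Of these falls, 2 were annotated as transcribed. At 8 of them, at least 1 other place in the genome matched 80% of the region at 95% identity. Near-identical copies were present at 57 of the 337 pseudogene starts (16.9%), against 945 of all 55680 regions (1.70%). Among those 945 regions, 204 (21.6%) were called as falls and 30 as rises. Among the 57 pseudogene starts with such a copy, 8 fell (14.04%) and 0 rose, and among the 280 without one, 13 fell (4.64%) and 6 rose (2.14%), beside 3.3% and 2.44% of all regions. The authors kept reads with a mapping quality above 10, and how many reads of a copied region were lost or moved between copies was not tested.

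Of the 10 named falls, 5 lay in 1 stretch of distal chromosome 4, and this stretch was chosen after the values were seen. From the first to the last of its members (chr4:145744754-147738881) lay 10 pseudogene starts, all at retrocopies, of Cdv3, Smarca5, Rplp1, Tlk2 and Ppp2r5a, and 5 of them fell, with a median log2 fold change of -1.58. Their GC content was high, with a median of 65.6% against 49.4% over all regions, and 8 of the 10 had near-identical copies. Falls in this stretch were not limited to pseudogenes, since 27 of all 44 regions between the first and the last member were called as falls. Gm13241, a copy of Cdv3, read 10.5, 8.24 and 3.78 CPM in young and 1.05, 0.981, 1.17 and 1.65 CPM in aged liver. It fell by 2.64 on the log2 scale (SE 0.37, adjusted p = 0.0055), and its groups did not overlap. Gm13238, the other Cdv3 copy, had 46, 122 and 8 counts in young and 6, 2, 0 and 8 counts in aged libraries, and its log2 fold change was -2.69 ± 0.54 (adjusted p = 0.016). The count of 0 in aged 3 allows a level of up to 0.700 CPM (3 counts, counting error only).

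The retrocopies of Smarca5, a chromatin remodelling ATPase of the ISWI family, both fell. Gm13135 read 8.70, 8.05 and 2.14 CPM in young and 1.49, 1.18, 1.40 and 1.78 CPM in aged liver (log2 fold change -2.13 ± 0.41, adjusted p = 0.014). Its young libraries were spread widely, with young 3 just above the highest aged library. Gm13136 had 36, 62 and 2 counts in young and 2, 5, 0 and 3 counts in aged libraries, where young 3 fell among the aged values (log2 fold change -2.56 ± 0.71, adjusted p = 0.048). Its call was lost in 12 of 19 alternative fits, where the adjusted p reached 0.311. Gm13245, a copy of the ribosomal stalk protein gene Rplp1, read 8.24, 8.31 and 3.12 CPM in young and 1.23, 0.981, 1.87 and 2.55 CPM in aged liver, without overlap (log2 fold change -2.03 ± 0.38, adjusted p = 0.014). In all 5 of these falls young 3 was the lowest young library. The copies of Tlk2, a kinase of DNA replication, and of Ppp2r5a, a phosphatase regulatory subunit, did not pass the test. Their log2 fold changes were -1.13 ± 0.34 at Gm13162, -0.21 ± 0.26 at Gm13243, 0.15 ± 0.37 at Gm13168, 0.33 ± 0.22 at Gm13161 and 0.01 ± 0.18 at Gm13244. The promoters of the parent genes Cdv3, Smarca5 and Rplp1 had log2 fold changes of 0.35, 0.24 and -0.05 (adjusted p = 0.164, 0.239 and 0.839).

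The other named falls lay elsewhere. Gm18262 on chromosome 13 (chr13:12864316-12865461), with no parent found, read 8.24, 8.39 and 5.26 CPM in young and 1.58, 1.57, 1.17 and 2.04 CPM in aged liver. The groups did not overlap, the log2 fold change was -2.18 ± 0.29 and the adjusted p of 0.0052 was the lowest of all 337 regions. Gm12892, a retrocopy of brain creatine kinase (Ckb), read 4.44, 6.01 and 1.97 CPM in young and 0.879, 0.588, 0.700 and 1.15 CPM in aged liver (log2 fold change -2.33 ± 0.41, adjusted p = 0.011). Gm12941, a partial copy of Cdc42se1, which encodes an effector of the GTPase CDC42, read 5.18, 6.39 and 7.73 CPM in young and 2.11, 1.37, 3.97 and 1.40 CPM in aged liver (log2 fold change -1.59 ± 0.34, adjusted p = 0.020). Both had groups that did not overlap. Gm6483, an unprocessed pseudogene on chromosome 8 whose best match was Cdh11, a cadherin, had 49, 74 and 4 counts in young and 6, 2, 3 and 1 counts in aged libraries. Its young 3 value of 0.658 CPM lay below the 0.700 CPM of aged 3, so the groups overlapped (log2 fold change -2.71 ± 0.60, adjusted p = 0.023), and the region has 4 near-identical copies. The call at Gm6483 was lost in 6 of 19 alternative fits, where the adjusted p reached 0.136.

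Mup-ps13 belongs to the major urinary protein cluster of chromosome 4, whose genes encode pheromone carriers made in quantity by male liver. Of 8 regions at 7 pseudogenes related to Mup6, only the second region of Mup-ps13 (chr4:61534090-61535005) passed the test. It read 7.31, 6.31 and 5.26 CPM in young and 2.11, 3.33, 2.10 and 1.53 CPM in aged liver, without overlap (log2 fold change -1.52 ± 0.29, adjusted p = 0.014). The neighbouring region over the same pseudogene had a log2 fold change of 0.05, and the remaining copies ranged from -0.55 to 0.10. Each of the 8 regions has 4 to 17 near-identical copies, and their levels of 3.77 to 7.94 CPM per kb all stood below the median of all regions.

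The 11 falls outside the rule for named regions had log2 fold changes from -1.49 to -0.62. Some were named after their values were seen. Pisd-ps1, an unprocessed relative of the phosphatidylserine decarboxylase gene Pisd, had the highest level of the falls (18.4 CPM per kb). It read 51.8, 46.2 and 41.4 CPM in young and 15.6, 17.1, 22.2 and 35.5 CPM in aged liver, where aged 4 stood apart from the other aged libraries (log2 fold change -1.04 ± 0.22, adjusted p = 0.020). At the neighbouring region of the same pseudogene the log2 fold change was -0.39 (adjusted p = 0.114). Gm49421, a relative of Cyp2d10 in the cytochrome P450 2D cluster of chromosome 15, read 15.7, 14.4 and 22.4 CPM in young and 9.49, 6.67, 7.94 and 7.25 CPM in aged liver (log2 fold change -1.12 ± 0.21, adjusted p = 0.013). Gm17872, a retrocopy of the nuclear import receptor gene Ipo7, read 19.5, 21.5 and 14.96 CPM in young and 5.97, 10.002, 6.54 and 7.64 CPM in aged liver (log2 fold change -1.34 ± 0.21, adjusted p = 0.0078).

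The order of processed and unprocessed pseudogene starts by level depended on the subset, and the difference was not tested. The median level was 9.06 CPM per kb at processed and 10.2 CPM per kb at unprocessed pseudogenes, against 10.8 for all regions and 22.3 for promoters of protein-coding genes, and it was 15.9 at the other types. Processed starts stood below unprocessed ones among those annotated as transcribed (8.42 against 14.1 CPM per kb) and among those without a near-identical copy (8.94 against 13.1). They stood above them among starts not annotated as transcribed (9.28 against 8.05) and among those with a near-identical copy (12.9 against 5.64). The median log2 fold change was -0.15 at processed pseudogenes, with 91 of 241 (37.8%) above 0, and 0.01 at unprocessed pseudogenes, with 44 of 81 (54.3%) above 0. Over all regions it was -0.04 with 46.6% above 0. Among starts with a near-identical copy the medians were -0.10 (33 processed) and -0.11 (23 unprocessed), and within protein-coding genes they were -0.15 (80) and -0.28 (17). The sign at unprocessed pseudogenes depended on the scaling, since total counts gave -0.10, and that scaling shifted the median of all regions to -0.15. The processed median was -0.27 with total counts and -0.022 with offsets fitted on mean abundance. Within each sample, the median log2 level per kb of processed minus that of unprocessed starts was -0.08 in the young (SD 0.06, n = 3) and -0.26 in the aged samples (SD 0.14, n = 4). The aged values were -0.36, -0.27, -0.34 and -0.06, so that aged 4 lay within the young range of -0.15 to -0.05.

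**Figure D2:**
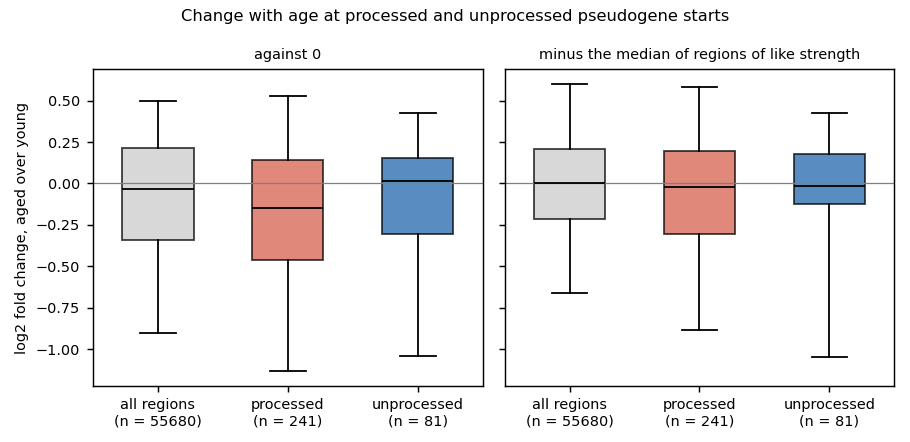
Log2 fold change of aged over young liver for all regions, processed and unprocessed pseudogene starts (boxes: quartiles and median, whiskers: 5th to 95th percentile), as fitted (left) and minus the median of all regions in the same decile by strength (right). The medians of -0.15 and 0.01 on the left become -0.02 and -0.01 on the right.

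Processed starts lay more often among the regions with a low total CPM. Over all regions, the median log2 fold change climbed from -0.42 in the weakest decile, ranked by mean log2 CPM, to 0.28 in the strongest. Of the processed starts, 61.4% lay in the weaker 5 deciles, against 40.7% of the unprocessed starts. This ranking does not divide by length, and the processed regions were narrower (median width 807 bp against 1098 bp). After the median of the same decile was subtracted from each region, the medians were -0.02 for processed and -0.01 for unprocessed starts. Within deciles the processed median still stood below the unprocessed one in 7 of 10, with few regions in each. In decile 2 from the weakest it was -0.82 (22 processed) against -0.45 (9 unprocessed), where all regions had -0.29. In decile 5 it was -0.15 (39) against 0.01 (7), and in the strongest decile it was 0.27 (8) against 0.20 (9), where all regions had 0.28. Starts annotated as transcribed had medians of -0.29 (25 processed) and 0.03 (32 unprocessed), and those not so annotated had -0.15 (216) and 0.01 (49).

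**Figure D3:**
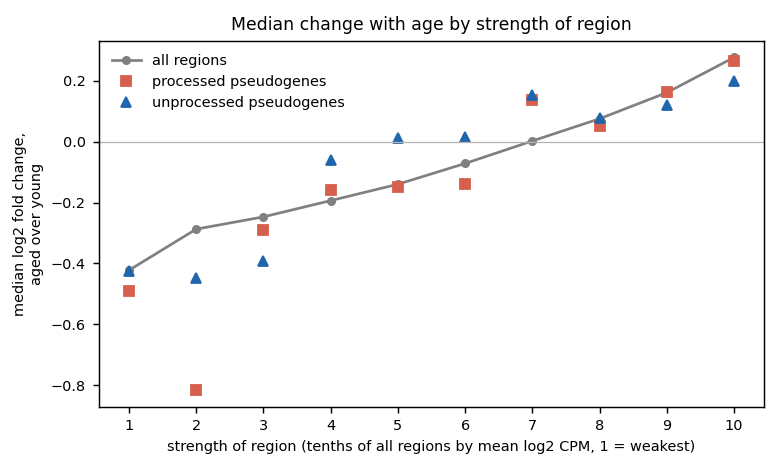
Median log2 fold change of aged over young liver (vertical axis) in each decile of the 55680 regions ranked by mean log2 CPM (horizontal axis, 1 is the weakest), for all regions (line), processed starts (squares) and unprocessed starts (triangles). The line climbs from -0.42 to 0.28, and the squares leave it most in decile 2.

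Apart from Gm42642, the strongest starts did not pass the test. On chromosome 8, between 19 and 21 Mb, Gm10060 and Gm21769 are retrocopies of Nsfl1c, a cofactor of the p97 ATPase, and had the next highest levels, 98.1 and 60.8 CPM per kb. Gm10060 read 87.8, 65.6 and 94.4 CPM in young and 88.1, 89.6, 104 and 89.9 CPM in aged liver (log2 fold change 0.17 ± 0.13). Gm21769 read 69.98, 60.2 and 73.8 CPM in young and 83.8, 81.8, 85.7 and 81.8 CPM in aged liver, without overlap but with an adjusted p of 0.111 (log2 fold change 0.30 ± 0.11). Both have 4 near-identical copies, and their levels exceeded the 31.8 CPM per kb of the Nsfl1c promoter. The unprocessed pseudogenes 6820431F20Rik and 2610005L07Rik in the same stretch had 38.2 and 40.7 CPM per kb and log2 fold changes of 0.15 ± 0.14 and 0.25 ± 0.15. The stretch held 6 pseudogene starts in all, and among them was the called fall at Gm6483, while the log2 fold change at Gm21182 was -0.31, with an adjusted p of 0.375. Gm47650, a retrocopy of the histone H3.3 gene H3f3a, had 55.3 CPM per kb and a log2 fold change of 0.12 ± 0.18. Gm49326, an unprocessed relative of Asap2 (an ARF GTPase-activating protein), stood at 38.5 CPM per kb, and its log2 fold change was 0.26 ± 0.12 (adjusted p = 0.179).

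Copies of mitochondrial DNA were among the more accessible pseudogenes, and this list was made after the values were seen. At 13 pseudogene starts (10 processed and 3 unprocessed by annotation), at least 50% of the region aligned to the mitochondrial genome, with identities from 79.9% to 97.7%. Their median GC content was 36.0% against 48.7% over the 337 regions, and their median level of 29.1 CPM per kb exceeded that of protein-coding promoters. All 13 stood above the median level of all regions per kb, while 30.8% of them lay in the weaker 5 deciles by mean log2 CPM, and the regions were short (median width 387 bp against 869 bp over all regions). The highest was Gm11512, a copy of mt-Co1, with 42.9 CPM per kb, followed by the mt-Co3 copy Gm28927 with 40.3. Gm13340, the copy shown above, read 58.3, 51.9 and 62.8 CPM in young and 70.3, 52.4, 67.5 and 77.3 CPM in aged liver, with overlapping groups (log2 fold change 0.22 ± 0.13, adjusted p = 0.322). None of the 13 passed the test in edgeR, DESeq2 or limma, and 0 of 13 had an unadjusted edgeR p under 0.05, where over all regions edgeR called 5.74%, DESeq2 8.42% and limma 8.23%, and 24.6% had an unadjusted p under 0.05. The log2 fold change was above 0 at 12 of 13, with a median of 0.16. Over all 31 regions that aligned to the mitochondrial genome in this way, at pseudogene starts or elsewhere, it was above 0 at 24 with a median of 0.10, beside 46.6% above 0 over all regions. In all 13 young 3 was the highest young library, against 141 of the 337 regions. The authors removed reads aligned to the mitochondrial genome, and whether some reads from mitochondrial DNA were placed in these copies was not tested.

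**Figure D4:**
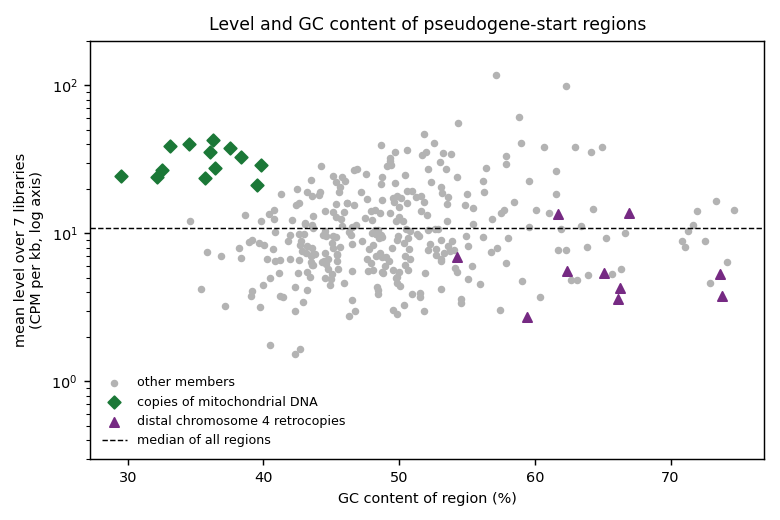
Mean level over the 7 libraries (CPM per kb, log axis) against GC content (%) of the 337 pseudogene-start regions, with copies of mitochondrial DNA as diamonds (n = 13), retrocopies of distal chromosome 4 as triangles (n = 10) and the median of all regions as a dashed line. The diamonds gather at a median of 36.0% GC and 29.1 CPM per kb, above the line, and the triangles at a median of 65.6% GC and 5.35 CPM per kb.

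Regions at pseudogenes of ribosomal protein genes were the largest family. There were 74 of them, from 43 parent genes or names, with a median level of 9.88 CPM per kb and a range from 1.53 to 46.6. Of these, 2 rose and 2 fell, a share of 2.70% in each direction beside the background of 2.44% and 3.3%, and the median log2 fold change was -0.12. The most accessible was Gm10180, a full-length retrocopy of Rpl41 with 100% identity, at 46.6 CPM per kb. It read 21.01, 13.3 and 18.9 CPM in young and 12.8, 15.3, 14.9 and 29.5 CPM in aged liver, where aged 4 stood highest and the groups overlapped (log2 fold change 0.06 ± 0.26). The sign rested on single libraries, since it was -0.29 without aged 4 and -0.13 without young 2, and -0.07 with total counts. Other housekeeping genes gave 13 regions with a median log2 fold change of -0.44, of which 1 passed the edgeR test, the fall at the Atp5g1 retrocopy Gm10039 (ATP synthase subunit c), while DESeq2 and limma each called 2, beside 8.42% and 8.23% of all regions. At 4 of the 13 (30.8%) every aged library lay below every young one, beside 11.6% of all regions. The Gapdh retrocopy Gm43368 was the most accessible of these, with 24.001 CPM per kb and a log2 fold change of 0.27 ± 0.18.

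Families with a role in liver metabolism gave 19 regions with a median log2 fold change of 0.02, of which 1 fell, the Cyp2d10 relative Gm49421. With so few regions, 1 edgeR call in this family, among other housekeeping genes or in each of the small families that follow cannot be told from the background of 3.3% falls. The most accessible of them was another member of the same P450 cluster, Gm19267, with 39.3 CPM per kb. It read 56.8, 55.4 and 36.7 CPM in young and 56.6, 55.5, 58.8 and 56.0 CPM in aged liver, with young 3 below all others (log2 fold change 0.18 ± 0.14). Secreted protein families gave 10 regions with a median of -0.24 and 1 fall, at Mup-ps13. Serpina3h, a pseudogene of the serine protease inhibitor family, was the most accessible of them per kb (9.41) and had a log2 fold change of -0.02 ± 0.42. Of 13 regions at zinc finger pseudogenes 1 fell, at Zfp-ps, while 5 had an unadjusted edgeR p under 0.05 and at 5 (38.5%) every aged library lay below every young one, beside 24.6% and 11.6% of all regions. The most accessible of them, Zfp389, had 35.2 CPM per kb and a log2 fold change of 0.35 ± 0.17 (adjusted p = 0.220). Genes with histone symbols (5 regions), antigen presentation (2) and chemosensory receptors (4) had none that passed the test in edgeR, DESeq2 or limma. They had 1, 0 and 0 with an unadjusted edgeR p under 0.05. The histone list was made by gene symbol, so the called Smarca5 copies are not in it. The Olfr542-ps1 start, of an olfactory receptor family, nevertheless stood at 32.0 CPM per kb, with a log2 fold change of 0.14 ± 0.19.

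The 15 regions at polymorphic, unitary and unspecified pseudogenes differed among themselves in level. The median was 14.6 CPM per kb at polymorphic (8) and 16.4 at transcribed unitary pseudogenes (3), whereas it was 10.4 at unspecified pseudogenes (3) and the level was 4.58 at the unitary one, beside 10.8 over all regions. None of the 15 passed the edgeR test, 1 had an unadjusted p under 0.05 and DESeq2 and limma each called 1, counts at or below the shares over all regions given for the mitochondrial copies. Atp10d, a lipid flippase gene, read 27.6, 32.4 and 41.3 CPM in young and 40.8, 38.2, 39.0 and 43.5 CPM in aged liver, with overlap (40.5 CPM per kb, log2 fold change 0.27 ± 0.14). Mx2, an interferon-induced GTPase against viruses, read 82.6, 66.6 and 87.1 CPM in young and 70.6, 72.2, 89.9 and 107 CPM in aged liver (34.9 CPM per kb, log2 fold change 0.11 ± 0.15). Gbp11, a guanylate-binding protein of the interferon response, read 28.0, 32.9 and 31.4 CPM in young and 41.4, 41.8, 41.3 and 28.1 CPM in aged liver, where aged 4 fell among the young values (18.1 CPM per kb, log2 fold change 0.30 ± 0.15, adjusted p = 0.225). Hyi (hydroxypyruvate isomerase), Zfp862-ps and 2810039B14Rik had 33.0, 23.97 and 16.4 CPM per kb and log2 fold changes of 0.15 ± 0.13, 0.04 ± 0.17 and 0.14 ± 0.21.

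Parent genes were identified for 290 regions by sequence search against protein-coding transcripts, with a median identity of 91.4% at processed and 89.5% at unprocessed pseudogenes. For 250 regions the parent had a promoter region of its own, and 210 of them stood below it in CPM per kb, with a median fold of 2.80 in favour of the parent. Across the 186 parent promoters the median log2 fold change was 0.16, with 6 rises and 1 fall, and over all promoters of protein-coding genes it was 0.10, with 4.54% called as rises and 1.82% as falls. Of the 27 called pseudogene starts, 20 had a parent with a promoter region, at 18 different promoters. None of these 18 was called by edgeR or limma, 4 had an unadjusted edgeR p under 0.05 and DESeq2 called 1. With the shares over all regions given above, 18 promoters are too few to set apart from the background.

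**Figure D5:**
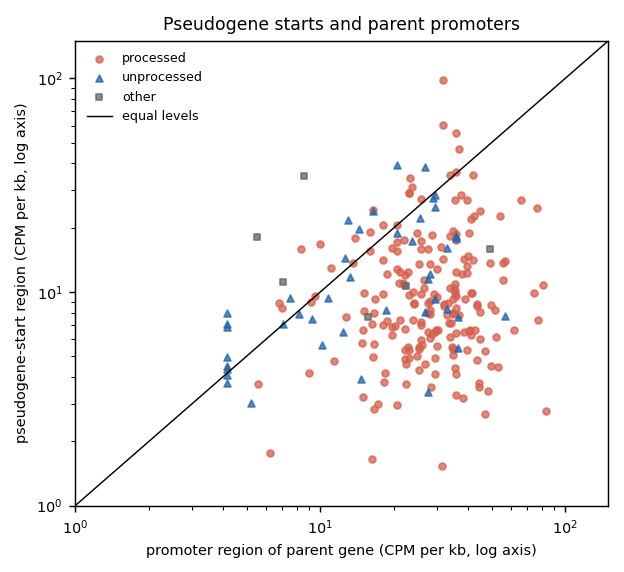
Level of pseudogene-start regions (vertical) against the promoter region of the parent gene (horizontal), both as mean CPM per kb over the 7 libraries on log axes, for 250 regions of processed (circles), unprocessed (triangles) and other (squares) types. Of these, 210 lie below the line of equal levels.

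Motifs of liver and promoter factors were counted in the central 300 bases of regions at least that long, on both strands. A CCAAT box (CCAAT) was present in 36.2% of processed and 40.5% of unprocessed starts, against 31.9% of all regions. The AP-1 motif (TGANTCA) was present in 4.91% of processed and 12.7% of unprocessed starts, which were 11 of 224 and 10 of 79 regions, against 9.09% of all regions. The SP motif (GGGCGG) was present in 19.2% of processed, 18.99% of unprocessed and 19.2% of all regions. For HNF4 (CAAAGTCC) the shares were 4.46%, 2.53% and 2.87%, and for FOXA (TGTTTAC) they were 5.36%, 7.59% and 5.88%. The shares for C/EBP (TTGCNNCAA) were 2.68%, 1.27% and 2.41%, those for ETS (CCGGAAG) were 4.02%, 2.53% and 4.33%, and those for CTCF (CCACNAGG) were 5.36%, 5.06% and 5.80%. Of the 26 called pseudogene starts long enough to be searched, 10 (38.5%) held none of the 8 motifs, beside 106 of all 318 searched (33.3%).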

How the data were processed

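The authors deposited raw read counts for 7 ATAC-seq libraries in 55680 consensus regions. By the study's methods, reads were trimmed with cutadapt 1.13 and aligned to GRCm38 with Bowtie2 2.4.1, properly paired reads with a mapping quality above 10 were kept, and duplicates from PCR were dropped together with reads on the mitochondrial genome. Peaks were called with MACS2 2.2.7, and featureCounts counted reads in the consensus regions without pooling replicates. Totals were 4474652 to 25461110 counts, so that weak regions rest on few counts in the shallowest libraries.

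Regions were matched to GENCODE M21 starts (Python 3.11.15). All 55680 regions were fitted together with edgeR 4.0.16 (TMM, quasi-likelihood test, young against aged, no block, no filter on low counts), and adjusted p-values cover all of them. CPM uses TMM library sizes, and log2 CPM a prior count of 2. On simulated data, the fit recovered 185 of 200 regions changed by 1.5 on the log2 scale. Of its 205 calls 9.76% were false, a larger share than the adjusted p threshold of 0.05 stands for. Neither share is split by level, so they do not show how the fit performs at weak regions, where most falls lie. Parent genes were the best BLAST 2.17.0 match to protein-coding transcripts with at least 70% identity over 30% of the pseudogene, and near-identical copies were found with minimap2 2.31. Regions named were the 10 largest called rises and falls, the 5 processed and 5 unprocessed with the highest CPM per kb, up to 6 other types, and the most accessible member of each family. Alternatives used DESeq2 1.42.0, limma 3.58.1, other scalings and filters, left-out or summed samples and other definitions of a start. Members, lists and tests were chosen with earlier results of these data known. Same-age libraries differed by 2.40 to 6.07 chi-square units per degree of freedom over 9 pairs, so none was treated as a repeat deposit.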

Additional observations from a re-analysis of the deposited data

Results flagged for a closer look

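The values of 35 named regions and of the processed and unprocessed medians were tested for a sample far from the others of the aged group with Dixon's ratio, which passes its 95% critical value in about 1 in 20 groups of 4 by chance. It did so at 2 of 37. At Gbp11 the ratio was 0.972, because aged 4 stood at a log2 CPM of 4.82 while aged 1, aged 2 and aged 3 stood at 5.38, 5.39 and 5.38. The young libraries stood at 4.82, 5.05 and 4.98. At Gm10060, a retrocopy of Nsfl1c, the ratio was 0.883, because aged 3 stood at 6.70 while the other aged libraries stood at 6.46, 6.49 and 6.49.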

How the results depend on the processing

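The counts of called pseudogene starts depended on most choices, and the shallowest libraries limit the weak regions on which most falls lie. Beside the 6 rises and 21 falls reported, DESeq2 gave 11 rises, total counts 3 rises, offsets on mean abundance 2 rises and 9 falls, offsets on GC content 13 rises, and a minimum of 10 counts in every sample, which leaves 278 of the regions, 3 rises and 7 falls, beside 1.11% rises and 1.69% falls of all 47355 regions that it keeps. A threshold of 0.01 left 0 rises and 3 falls, regions with a midpoint within 200 bp of the start (132) gave 2 and 6, and those without a near-identical copy gave 13 falls. The share of all regions called at 0.01 is not given, so that drop has no background beside it. Summing aged 1 and 3 gave 1 rise and 12 falls, and summing aged 2 and 4 gave 10 rises. With a library left out, rises ranged from 0 (without young 1 or young 2) to 11 (without aged 4), falls from 3 (without young 1) to 29 (without aged 4), the processed median from -0.19 (without aged 4) to -0.10 (without aged 3) and the unprocessed median from -0.02 (without young 2) to 0.08 (without aged 4). The processed median of -0.15 stayed below 0 under every alternative, at -0.27 with total counts, -0.022 with offsets on mean abundance, -0.10 with offsets on GC content, and -0.10 with either aged 1 and 2 or aged 1 and 3 summed. The unprocessed median was -0.10 with total counts, which moved the median of all regions from -0.04 to -0.15. Of 324 refits of the 16 named called regions, 238 kept the call and 86 lost it, and none changed sign. The losses were most frequent at Gm10319 (13 of 21), Gm13136 (12 of 19) and Gm15981 (12 of 21). Of 398 refits of the 19 named regions not called, 1 passed the threshold, at Gbp11, and 30 changed sign. Removing the mitochondrial copies left 6 rises and 21 falls, and removing the distal chromosome 4 stretch left 6 and 16, both alternatives being chosen after the data were seen. The cause of these changes was not tested beyond the number of regions or samples that each alternative keeps.

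Same-numbered young and aged samples did not deviate together over regions, with correlations of -0.12, 0.06 and 0.03 for replicates 1, 2 and 3. Whether same-numbered samples were prepared together is not given by the labels and was not tested. With the replicate block, which leaves out aged 4, there were 9 rises and 31 falls, beside 2.91% rises and 4.55% falls over all regions, and the processed and unprocessed medians were -0.19 and 0.06.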

Other observations

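Apart from the pseudogene whose region fell at Mup-ps13, 4 further pseudogenes had starts at a pair of neighbouring regions. At Olfr542-ps1 the log2 fold changes were 0.14 and 0.09, at Pisd-ps1 -0.39 and -1.04, at Gm12034 -0.29 and -1.09, and at Gm8557 -0.45 and -1.10. Of these regions, 1 passed the test, the one at Pisd-ps1 with -1.04.

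B330016D10Rik, a pseudogene of no stated type, read 89.5, 78.9 and 65.6 CPM in young and 105, 90.8, 107 and 115 CPM in aged liver, without overlap (log2 fold change 0.42 ± 0.13, adjusted p = 0.067).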
